A study of Mus musculus with 15 samples.

Results

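Hepatokines are proteins that the liver releases into the blood and that act on other organs or on the liver itself. The genes described here are Fgf21, Gdf15, Angptl4, Angptl8, Ahsg, Fetub and Lect2, which encode such proteins, and Lepr, which encodes the receptor of the adipose hormone leptin. FGF21 is released on fasting and on amino acid stress and acts through a receptor that pairs an FGF receptor with beta-klotho, while GDF15 is released by stressed cells and reduces food intake through the receptor GFRAL in the hindbrain. ANGPTL4 and ANGPTL8 act on lipoprotein lipase, the enzyme that takes triglycerides out of the blood, and the fetuins encoded by Ahsg and Fetub are abundant plasma proteins made by hepatocytes. H3K4me3, histone H3 with 3 methyl groups on lysine 4, lies at the start sites of genes that are transcribed or ready to be transcribed.

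The 8 genes were chosen by name, from 21755 protein-coding genes of the annotation, and the rule that selects them uses no measured value. Earlier results of these data were known when the choice was made. Each gene was represented in each mouse by its highest-scoring H3K4me3 peak within 1 kb of any of its transcription start sites (TSSs) in GENCODE M21, on the mm10 build. H3K4me3 was measured by PAT-ChIP-seq, a ChIP-seq procedure for formalin-fixed, paraffin-embedded tissue, in liver sections of 15 C57BL/6 females (C57BL/6J in the methods of the study), with 3 mice on each of 5 diets and 1 library per mouse. The control mice (SD) had a standard diet without restriction. The calorie-restricted mice (CR) had a reduced daily amount of that same diet, and the high-fat mice (HF) had a separate high-fat diet without restriction. The yellow corn mice (YD) and the purple corn mice (RD) had the standard diet with its maize replaced by powder of anthocyanin-free yellow corn or of anthocyanin-rich purple corn, from near-isogenic hybrids. All mice carried the wild-type genome. Their age is 12 months in the labels, while the design of the series gives a start at 3 months and 10 months of feeding. The mice came from several litters, and the labels do not say which mouse came from which. In whole tissue, fewer cells of a type and less mark per cell cannot be told apart.

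Peaks were called in each library by SICER2, which joins enriched windows of 200 bp across gaps of up to 400 bp and gives each peak a score. The scores are not scaled between libraries, so each was turned into a score percentile, the percentage of the peaks in the same mouse's list with a score no higher, and a gene without a peak was given 0. The lists held 7825 to 33752 peaks, and 17.5% to 54.6% of the protein-coding genes had a peak. The reads behind the lists, recovered from the scores, ranged from 5589269 to 13978169 in 14 libraries and came to 15449854 in YD replicate 1, where the recovery was less exact. YD replicate 3 had the smallest share of genes with a peak and was the only mouse without a peak at Angptl4 and Ahsg. Of 9 hepatocyte marker genes, 4 to 9 had a peak in each mouse, and no adipocyte or skeletal muscle marker had a peak in any mouse.

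The sequences at the start sites are shown first, because the peaks are described by their position relative to them. RefSeq gave a window of 250 bases before to 50 bases after the start site for 7 of the 8 genes. Angptl4 had no entry. Each window is given 5′ to 3′ on the strand of the gene, on GRCm38.p6, with every CpG in capitals, since the number of CpGs is a feature of promoters that varies widely among genes. Fgf21 and Angptl8 are shown for the motif they share, Gdf15 and Ahsg for the place of their peaks, Lepr for its CpGs and Fetub for its separate start sites.
Fgf21 (chr7:45615441-45615740, minus strand): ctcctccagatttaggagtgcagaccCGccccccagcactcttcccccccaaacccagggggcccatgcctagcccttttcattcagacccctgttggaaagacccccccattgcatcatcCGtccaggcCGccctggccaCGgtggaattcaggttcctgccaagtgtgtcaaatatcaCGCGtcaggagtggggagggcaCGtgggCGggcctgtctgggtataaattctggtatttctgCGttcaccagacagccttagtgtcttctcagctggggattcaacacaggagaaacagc
Angptl8 (chr9:21835260-21835559, plus strand): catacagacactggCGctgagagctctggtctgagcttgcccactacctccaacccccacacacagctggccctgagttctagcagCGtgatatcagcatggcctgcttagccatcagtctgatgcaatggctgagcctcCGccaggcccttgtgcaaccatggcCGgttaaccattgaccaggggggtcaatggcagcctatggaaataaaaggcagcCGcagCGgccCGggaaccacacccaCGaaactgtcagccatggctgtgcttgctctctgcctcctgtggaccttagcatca
Gdf15 (chr8:70632046-70632345, minus strand): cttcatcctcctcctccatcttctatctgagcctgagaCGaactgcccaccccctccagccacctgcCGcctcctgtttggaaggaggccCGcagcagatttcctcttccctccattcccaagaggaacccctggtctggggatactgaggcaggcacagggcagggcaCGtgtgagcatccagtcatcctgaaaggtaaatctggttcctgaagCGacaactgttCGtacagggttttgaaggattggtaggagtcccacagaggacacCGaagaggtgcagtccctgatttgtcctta
Lepr (chr4:101717157-101717456, plus strand): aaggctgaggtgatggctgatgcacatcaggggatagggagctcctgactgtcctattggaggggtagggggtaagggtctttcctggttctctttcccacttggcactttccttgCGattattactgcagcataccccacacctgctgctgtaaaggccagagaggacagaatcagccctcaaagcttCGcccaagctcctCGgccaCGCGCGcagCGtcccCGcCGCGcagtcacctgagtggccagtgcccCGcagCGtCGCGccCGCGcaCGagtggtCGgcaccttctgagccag
Ahsg (chr16:22891765-22892064, plus strand): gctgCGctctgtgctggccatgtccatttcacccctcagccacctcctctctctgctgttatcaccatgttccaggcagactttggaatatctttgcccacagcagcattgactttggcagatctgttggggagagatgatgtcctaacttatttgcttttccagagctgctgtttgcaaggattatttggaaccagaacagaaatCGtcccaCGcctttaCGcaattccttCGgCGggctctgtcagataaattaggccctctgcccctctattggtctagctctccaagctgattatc
Fetub upstream (chr16:22918132-22918431, plus strand): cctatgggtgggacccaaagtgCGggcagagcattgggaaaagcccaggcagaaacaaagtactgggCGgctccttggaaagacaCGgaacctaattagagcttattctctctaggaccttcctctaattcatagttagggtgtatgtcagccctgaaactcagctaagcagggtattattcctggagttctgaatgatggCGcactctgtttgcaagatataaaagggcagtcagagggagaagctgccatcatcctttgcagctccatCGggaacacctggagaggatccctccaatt
Fetub downstream (chr16:22919972-22920271, plus strand): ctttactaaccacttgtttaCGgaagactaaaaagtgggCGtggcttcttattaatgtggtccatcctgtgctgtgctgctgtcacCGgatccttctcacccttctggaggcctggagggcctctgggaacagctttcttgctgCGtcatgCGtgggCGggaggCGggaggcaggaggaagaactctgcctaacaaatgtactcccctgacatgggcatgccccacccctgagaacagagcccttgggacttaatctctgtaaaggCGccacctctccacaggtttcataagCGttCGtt

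Of the windows shown, that of Lepr held 18 CpGs, the most, and the others held 5 to 10. Lepr has a second RefSeq window with 13 CpGs and Gdf15 a second with 1. The median over the 32851 RefSeq windows was 7. With each protein-coding gene taken by its window with the most CpGs, genes with at least 15 CpGs had a peak in a median of 10 libraries, genes with 5 to 14 CpGs in a median of 1, and genes with fewer than 5 CpGs in a median of 0. Angptl8, with 8 CpGs, had a peak in all 15 libraries and Ahsg, with 6, in 14, whereas 11.4% of genes with 5 to 14 CpGs had a peak in 14 or 15 libraries. Lepr, in the group with at least 15 CpGs by its first window, had a peak in 4.

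Motifs were searched in the windows on both strands by their exact letters, and none of the matches overlapped another. The letters TTGCATCA, the ATF4-C/EBP element, were found in Fgf21 at positions -139 to -132 from the start site and, on the opposite strand, in Angptl8 at positions -130 to -123. They were in 0.895% of all RefSeq windows of this length. The letters TATAAA of the TATA box, in 13.6% of all windows, were found in Fgf21 at positions -28 to -23 and at the upstream Fetub start at positions -31 to -26. The letters CCAAT of the CCAAT box, in 37.4% of all windows, were found in the Gdf15, Lepr, Ahsg and upstream Fetub windows. These matches are descriptions of the letters and not of binding.

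The 8 genes fell into those with a peak in nearly every mouse, those with a peak in some mice of most diets, and those with peaks in few mice. Angptl8 had a peak in 15 libraries, Angptl4 and Ahsg in 14, Gdf15 and Lect2 in 7, Fetub in 5, Lepr in 4 and Fgf21 in 1. Over all protein-coding genes, 9.46% had a peak in all 15 libraries and 40.04% had none in any library. By mouse, 6, 5 and 4 of the 8 genes had a peak on SD, 3, 4 and 7 on CR, 7, 5 and 7 on HF, 3, 3 and 1 on YD and 4, 3 and 5 on RD. The mean was 5 ± 1 on SD, 4.67 ± 2.08 on CR, 6.33 ± 1.15 on HF, 2.33 ± 1.15 on YD and 4 ± 1 on RD (mean ± standard deviation, n = 3 mice), and 3 on YD without replicate 3. The order of the diets followed the share of all protein-coding genes with a peak, except that CR, at 43.4% of genes, stood above SD, at 39.6%. HF had 51.2%, RD 31.2% and YD 22.8%.

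**Figure D1:**
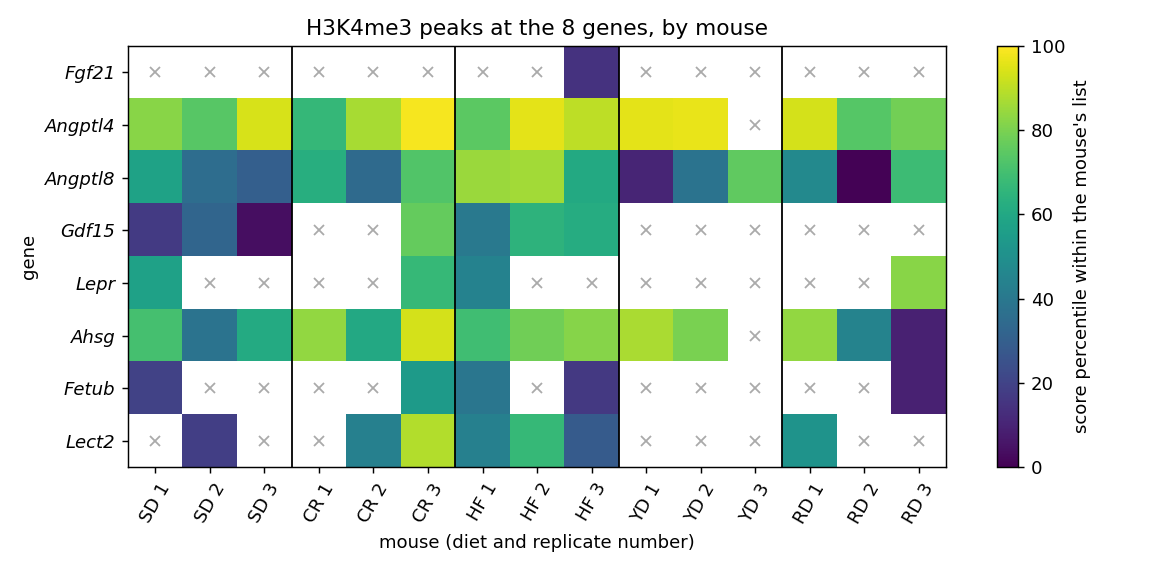
Score percentile of the highest-scoring H3K4me3 peak at each of the 8 genes (rows) in each of the 15 mice (columns, 3 per diet). Colour gives the percentile within the mouse's own list and a grey cross marks a gene without a peak, and the Gdf15 row holds no peak in the 6 mice on the corn diets.

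**Figure D2:**
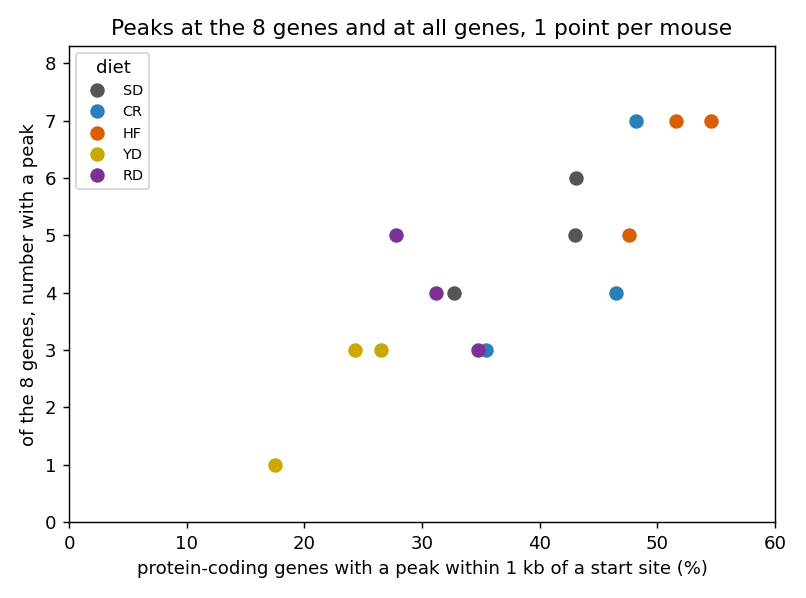
Number of the 8 genes with a peak (vertical axis) against the percentage of all protein-coding genes with a peak (horizontal axis), with 1 point per mouse coloured by diet. YD replicate 3, with 17.5% of genes, has 1 of the 8, and HF replicates 1 and 3, with 54.6% and 51.5% of genes, have 7.

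Gdf15, the stress hormone gene at chr8:70629393-70632456 on the minus strand, had the lowest exact p of the 8 genes in the comparisons of the corn diets and of HF with the other diets. Its score percentile was 17.2, 32.5 and 3.88 on SD and 40.3, 64.5 and 62.0 on HF. On CR it was 76.2 in replicate 3, and the other CR mice had no peak. No peak was found in any of the 3 YD or 3 RD mice, so the SD mice lay above all corn mice and below all HF mice, while the CR mice spanned the range of both. The peaks were 1600, 1200 and 1600 bp wide on SD, 1800 bp in the CR mouse and 1600, 2400 and 3000 bp wide on HF. Where Gdf15 had no peak, the nearest peak in the list lay 20095 to 67345 bp away. The Gdf15 peaks on SD scored 18.9, 21.4 and 19.9, in lists with a lowest score of 17.4, 16.2 and 19.7. The lists of RD replicate 2 and YD replicate 1 had higher lowest scores, 23.3 and 26.8. In YD replicates 2 and 3 and RD replicates 1 and 3 the lowest scores were 16.1, 14.5, 15.3 and 15.2. The part of these limits in the absence of Gdf15 peaks on the corn diets was not tested.

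The mean score percentile of Gdf15 was 0 in the 6 corn mice and 32.9 ± 29.6 (standard deviation) in the other 9, a difference of -32.9 with p = 0.0112 in an exact permutation test (two-sided, all arrangements of the 15 mice). Since all 6 corn mice were at 0, this p depends only on which mice had a peak, and not on the percentiles of the peaks. After Benjamini-Hochberg adjustment over the 13044 genes with a peak in at least 1 library, the exact test gave an adjusted p of 0.0578. The mean on HF was 55.6 ± 13.3 (n = 3), against 10.8 ± 22.9 in the other 12 mice, a difference of 44.8 with an exact p = 0.0264 and an adjusted p of 0.279. The call for the corn diets did not hold when every list was reduced to its 7825 highest-scoring peaks (difference -4.19, exact p = 0.686) or when the TSS had to lie inside the peak (difference -14.05, exact p = 0.686). The HF difference had an exact p of 0.0659, 0.0879 and 0.0879 without HF replicate 1, 2 and 3 in turn. The library names take the form ChIP in 10 mice and PATChIP in 5. Within the ChIP form the difference was -34.0 for the corn diets (exact p = 0.00794). That restriction leaves out CR replicates 1 and 2, the only mice outside the corn diets without a Gdf15 peak. All mice kept from the other diets thus had a peak. For HF the difference within the ChIP form was 25.9, where 1 HF mouse leaves no test that could pass 0.05.

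The presence of a Gdf15 peak by diet was looked for at other genes, a pattern read from Gdf15 itself. Of 6341 protein-coding genes with a peak in all 3 SD mice, 137 (2.16%) had none in the 6 corn mice. Of the 6271 with a peak in all SD and all HF mice, 128 (2.04%) had none in the corn mice. Neither set was matched to Gdf15 in its score percentile on SD. By score percentile, 39.4% of all genes were lower on the corn diets at an exact p under 0.05, Gdf15 among them. In all, 7 genes, Gdf15 among them, had a peak in exactly the same libraries. The genes with the most similar score percentile over the 15 libraries were Comtd1 (Spearman's rho = 0.97) and Rcsd1 (rho = 0.96), both with a peak in the same 7 libraries, which fixes a large part of these values.

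Angptl4, at chr17:33773750-33781830 on the minus strand, encodes an inhibitor of lipoprotein lipase that fatty acids induce through the PPARs. Its peaks had the highest median score percentile of the 8 genes, 88.5 over the 14 mice with a peak. Its score percentile was 82.3, 74.1 and 93.9 on SD, 66.7, 87.0 and 98.6 on CR, and 74.8, 96.0 and 90.0 on HF. On YD it was 95.9 and 96.6 in replicates 1 and 2, with no peak in replicate 3, and on RD it was 93.4, 73.8 and 78.6. All diets overlapped, and the YD mice held both the absent peak and percentiles among the highest. In the list of CR replicate 3, of 33752 peaks, the Angptl4 peak ranked number 484.

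The score percentile of Angptl4 differed by -11.8 between the corn diets and the others (exact p = 0.542), and by 2.86 without YD replicate 3 (exact p = 0.645). Its width was 1600, 2200 and 4200 bp on SD, 1800, 3200 and 3600 bp on CR and 2400, 4000 and 4600 bp on HF, against 1800 and 2200 bp in the YD mice with a peak and 2000, 1600 and 1200 bp on RD. With the absent peak counted as 0, the mean width was 1467 ± 797 bp in the 6 corn mice and 3067 ± 1105 bp in the other 9, with an exact p = 0.0120 and an adjusted p of 0.0652. Without YD replicate 3, a choice made after seeing the data, the difference was -1307 bp (exact p = 0.0300) in place of -1600 bp. At this threshold, again with absent peaks as 0, 38.4% of all genes had a smaller mean width on the corn diets and 0.00767% a larger one. The median difference in width over all genes was -833 bp.

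Angptl8, at chr9:21835510-21837347 on the plus strand, encodes a feeding-induced protein that takes part in the control of lipoprotein lipase. It had a peak in every mouse. The score percentile was 57.5, 35.8 and 30.4 on SD, 62.7, 34.7 and 72.8 on CR, 84.8, 86.3 and 60.7 on HF, 10.2, 38.1 and 75.5 on YD and 46.9, 0.526 and 68.6 on RD. The HF mice lay above all SD mice, and the YD and RD mice spread from among the lowest to among the highest values. The lowest percentiles, in RD replicate 2 and YD replicate 1, came from the lists with the highest minimum score, 23.3 and 26.8, where the Angptl8 peaks scored 23.3 and 28.4.

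The mean of Angptl8 on HF was 77.3 ± 14.4 (n = 3), against 44.5 ± 24.1 in the other 12 mice, a difference of 32.8 with an exact p = 0.0308 and an adjusted p of 0.280. With the peak ranked among all protein-coding genes in place of all peaks, the difference was 7.15 with an exact p = 0.281. By that rank the mean was highest on YD, at 83.1 ± 8.57, with HF at 80.5 ± 7.16, RD at 75.7 ± 10.3, CR at 67.3 ± 10.2 and SD at 67.2 ± 4.66. Leaving out HF replicate 1 or 2 gave an exact p of 0.132 in each case, and within the libraries of the ChIP form the difference was 41.6 with 1 HF mouse, too few for the test to pass 0.05. The Angptl8 peak was 2600, 2400 and 2200 bp wide on HF and 800 to 2600 bp wide in the other mice. The widths on HF overlapped the SD range of 800 to 2600 bp.

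Ahsg encodes fetuin-A, a plasma protein that inhibits calcification and binds the insulin receptor, and lies at chr16:22891277-22899449 on the plus strand. Its score percentile was 70.3, 38.1 and 61.0 on SD, 83.7, 60.3 and 93.7 on CR and 69.4, 78.4 and 81.8 on HF. On YD it was 87.4 and 80.1 with no peak in replicate 3, and on RD it was 83.9, 44.6 and 9.19. The diets overlapped, and the corn mice had the widest spread, 50.9 ± 39.1 (n = 6) against 70.8 ± 16.4 (n = 9), with an exact p = 0.201. The difference of -19.9 became -9.71 without YD replicate 3 (exact p = 0.480) and -11.6 without RD replicate 3 (exact p = 0.458). The peak on HF was 3800, 2400 and 6400 bp wide, the last the widest peak at any of the 8 genes. With the absent peak of YD replicate 3 counted as 0, the mean width was 4200 ± 2030 bp on HF against 1783 ± 1056 bp in the other 12 mice (exact p = 0.0352, adjusted p = 0.170). YD replicate 1, at 4200 bp, lay within the HF range.

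Ahsg and Angptl4 had a peak in the same 14 libraries and both lacked it in YD replicate 3. The antisense gene Gm30505 shared the Ahsg peak in all 14 libraries, and the mark at Ahsg cannot be separated from the mark at that gene. In SD replicate 3, CR replicate 2 and CR replicate 3, Ahsg had a second peak within its transcribed part, and in CR replicate 2 the second peak had the higher score.

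Fetub encodes fetuin-B, a protease inhibitor that prevents premature hardening of the coat of the egg, and lies beside Ahsg at chr16:22918334-22939778. The nearest start sites of the neighbours are 23470 bp apart on the same strand. The score percentile of Fetub was 19.9 in SD replicate 1, 54.7 in CR replicate 3, 39.2 and 16.6 in HF replicates 1 and 3, and 9.19 in RD replicate 3. No peak was found in the other 10 mice, and no diet had a peak in all 3 mice. In the 14 libraries with an Ahsg peak, the Fetub peak was thus present in 5.

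Lect2 encodes a hepatocyte protein with actions on leukocytes and endothelium and a binding partner of the receptors MET and TIE1, and lies at chr13:56542464-56548502 on the minus strand. Its score percentile was 43.6, 66.96 and 28.6 on HF, 43.4 and 88.3 in CR replicates 2 and 3, 18.4 in SD replicate 2 and 51.3 in RD replicate 1. All HF mice lay above all SD mice, and 2 of the 3 CR mice did so as well. The mean on HF was 46.4 ± 19.3 against 16.8 ± 29.0 in the other 12 mice, with an exact p = 0.154. The peaks were 800 to 2600 bp wide, the widest in CR replicate 3. In mice without a peak at Lect2 the nearest one lay 412009 to 820209 bp away.

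Lepr, at chr4:101717404-101815352 on the plus strand, had a peak in 1 mouse of each diet except YD. The score percentile was 57.4 in SD replicate 1, 66.8 in CR replicate 3, 44.3 in HF replicate 1 and 82.4 in RD replicate 3, and the difference between the corn diets and the others was -4.99 (exact p = 0.923). All 4 of these mice also had a peak at Fetub, which had a peak in 1 further mouse. Leprot, a neighbouring gene whose product regulates the amount of leptin receptor at the cell surface and whose nearest start lies 69611 bp away, had a peak in 13 libraries. No peak was found within 1 kb of the 3 further start sites annotated inside Lepr.

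Fgf21, at chr7:45613886-45615490 on the minus strand, had a peak in HF replicate 3, with a score percentile of 14.6 and a width of 1200 bp. It covered the start site, from 110 bp upstream to 1089 bp downstream of it. In the other 14 mice the nearest peak lay 12111 to 40690 bp away. Fut1, the gene with the nearest start site at 1799 bp, had no peak in any library.

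The peaks lay towards the inside of the genes. Relative to the TSS of the lowest-numbered Ensembl transcript, the centre was downstream in 67 of 67 peaks at the 8 genes, at a median of 1029.5 bp. These 67 peaks are the same 8 genes counted again in up to 15 libraries and are not 67 separate sites. Over 122861 peaks at all protein-coding genes, 72.6% had the centre downstream and the median was 375.5 bp. The TSS itself lay inside the peak in 29 of the 67. At Angptl8 the peak began 91 bp past the start in 11 of 15 libraries, and the start was inside the peak in HF replicates 2 and 3 and YD replicate 1. The windows of SICER2 are 200 bp wide, so these edges are resolved to 200 bp.

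At Gdf15 the peak began 495 to 695 bp past the start in 5 of 7 libraries, and HF replicates 2 and 3 had peaks that covered the start printed above. At Fetub no peak lay within 1 kb of the 3 upstream start sites, from 22918334 to 22918499 on chromosome 16, and all 5 peaks lay at the downstream start sites. Here the downstream window printed above was itself not covered by a peak in any library. No further peak was found inside any of the 8 genes more than 1 kb from their TSSs.

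**Figure D3:**
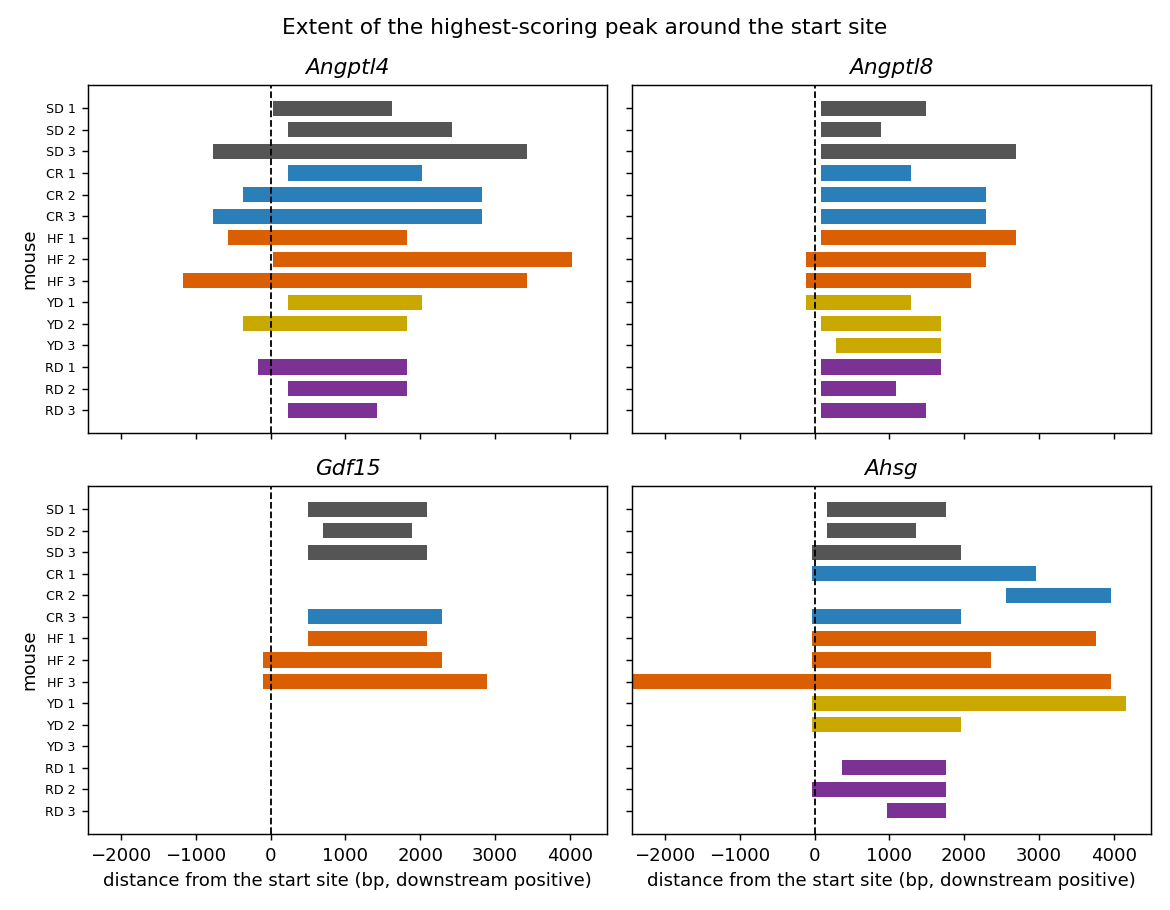
Extent of the highest-scoring H3K4me3 peak at Angptl4, Angptl8, Gdf15 and Ahsg in each mouse, as distance in bp from the TSS of the lowest-numbered Ensembl transcript, with the downstream side positive. Each bar is a peak, coloured by diet, a mouse without a bar has no peak, and most of each bar lies to the right of the dashed line at the TSS.

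The diets were compared over the 8 genes with all protein-coding genes beside them. In the comparison of RD with SD, the score percentiles of the 3 mice of each diet did not overlap at 1 of the 7 members with a peak in any of the 6 mice (Gdf15, lower on RD), and at none in the other direction, while 8.2% of all genes were lower on RD and 0.867% higher. In YD against SD it was again Gdf15, lower on YD, of 7 members, where 24.1% of all genes were lower and 0.149% higher. Since YD and RD share the SD mice, these are not separate observations of SD. In CR against SD no member of 7 was without overlap, where 5.3% of all genes were higher on CR and 0.582% lower. In HF against SD, Gdf15, Angptl8 and Lect2 were higher on HF, 3 of 8 members, where 14.4% of all genes were higher and 0.599% lower. In RD against YD, the comparison of the corn hybrids, no member of 6 was without overlap, where 12.5% of all genes were higher on RD and 0.407% lower. With 3 mice on each side the exact test, two-sided, goes no lower than p = 0.1, so it cannot pass 0.05 for any pair of diets. No model with the spread pooled over the diets was fitted. Without YD replicate 3, Angptl4 and Ahsg were higher on YD than on SD with no overlap and Angptl4 was lower on RD than on YD. Fewer mice separate more easily, and the share of all genes was not computed without that mouse. The shares above do not apply to these calls.

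With the 6 corn mice set against the other 9, 1 of the 8 members was lower at an exact p under 0.05 (Gdf15) and none higher, where 39.4% of all genes were lower and 0.0997% higher. The difference of the 8 members ranged from -32.9 for Gdf15 to -1.62 for Fgf21, with a median of -15.7, and the median over all genes was -22.0. Fgf21 passed the filter of a peak in at least 1 library through a single HF mouse. With HF set against the other 12 mice, 2 of the 8 members were higher (Gdf15 and Angptl8) and none lower, where 15.1% of all genes were higher and 0.069% lower. The median difference was 14.4 over the members and 19.6 over all genes. In width, with an absent peak counted as 0 bp, 3 of the 8 members (Gdf15, Angptl8 and Ahsg) had a larger mean on HF. Of all genes, 25.4% had a larger and 0.00767% a smaller one. At Gdf15, 4 of the other 12 mice had a peak, and their widths of 1200 to 1800 bp overlapped those on HF. No member passed an adjusted p of 0.05 in either comparison, while 1491 genes did so for the corn diets and none for HF, where the lowest adjusted p of the exact test was 0.175 and 1975 higher and 9 lower genes had an unadjusted p under 0.05.

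**Figure D4:**
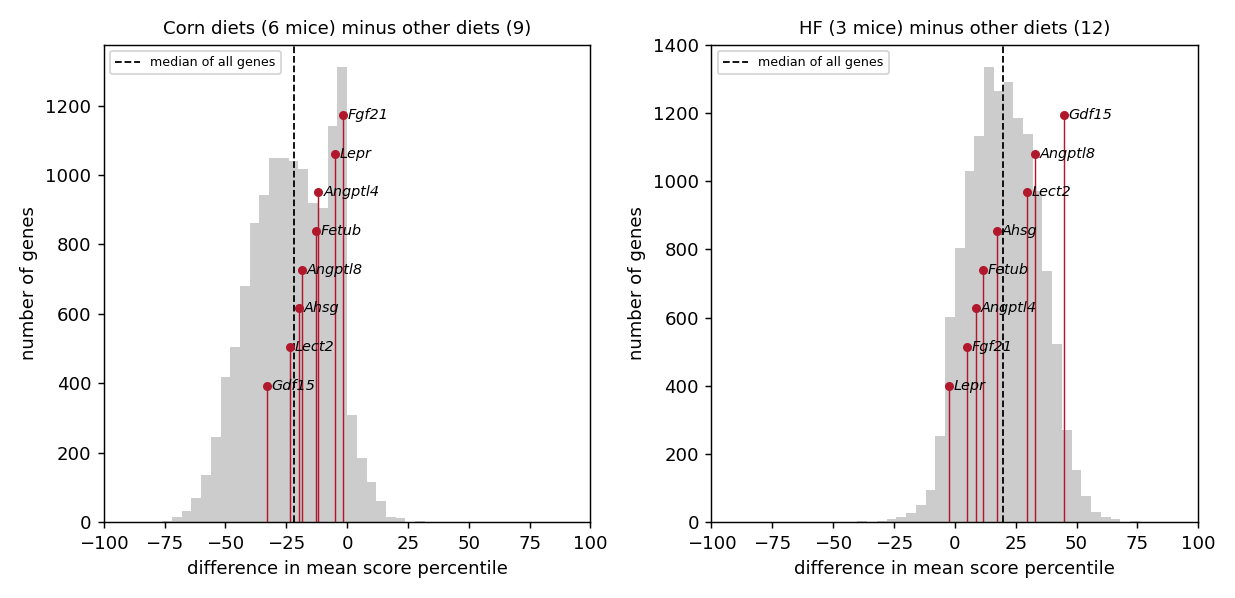
Distribution over 13044 protein-coding genes (grey bars, number of genes) of the difference in mean score percentile between the 6 corn mice and the other 9 mice (left) and between the 3 HF mice and the other 12 (right). Red pins mark the 8 genes at heights chosen for legibility and the dashed line is the median of all genes, at -22.0 on the left and 19.6 on the right.

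Markers of other cell types were counted in the same way. Of 6 markers of sinusoidal endothelium, 3 to 6 had a peak in each HF mouse, against 0 to 4 on SD, 1 to 2 on CR, 0 to 1 on RD and 0 on YD. Of 6 stellate cell markers, 0 to 3 had a peak on HF, 0 to 2 on SD and 0 on the other diets. Of 6 Kupffer cell markers, 0 to 3 had a peak on HF (Clec4f, Adgre1 and Cd5l) and 0 on every other diet, and Vsig4, Marco and Timd4 had none. Of 4 leukocyte markers, Ptprc alone had a peak, in 0 or 1 of the 3 mice of each diet except RD, with 2. Of 4 bile duct markers, 0 to 1 had a peak on SD and HF, 0 to 2 on CR and 0 on the corn diets. Of 1135 olfactory receptor genes, which are not used in liver, 2 to 151 had a peak, the most in an RD mouse. All 9 hepatocyte markers had a peak in every HF mouse. The part of these markers, and of the larger share of genes with a peak on HF, in the values of Gdf15, Angptl8 and Lect2 was not tested. On the corn diets 4 to 9 of the 9 hepatocyte markers had a peak, which spans the range of 6 to 9 on SD and CR.

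Among the 22 other liver-secreted factors, 18 had a peak in at least 1 library. At an exact p under 0.05, 5 of the 18 were lower on the corn diets and none higher, with a median difference of -24.3, and 3 were higher on HF, with a median of 23.5. Over all genes 39.4% were lower on the corn diets and 15.1% higher on HF, with medians of -22.0 and 19.6. Tsku, whose product tsukushi is secreted by the liver, differed by -55.2 percentile points on the corn diets (exact p = 0.00120, adjusted p = 0.0348). On HF, the acute-phase gene Orm1 differed by 56.2 and the hepatokine gene Fgl1 by 46.3, with exact p of 0.0308 and 0.0440 and an adjusted p of 0.280 for each.

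Among the 15 genes for receptors and partners of the members, 11 had a peak in at least 1 library and 4 of these were lower on the corn diets, with none higher and a median difference of -21.9, where 39.4% of all genes were lower. The LECT2 receptor gene Met differed by -58.6 (exact adjusted p = 0.0316), Fgfr2 by -47.5 (exact adjusted p = 0.0348) and Fgfr3 by -40.2 (exact adjusted p = 0.0469). Fgfr1, the usual partner of beta-klotho in the FGF21 receptor, was the 1 of 11 genes of this list higher on HF, by 43.5 (exact p = 0.00440, adjusted p = 0.175), where 15.1% of all genes were higher. Klb, the gene of beta-klotho, had a peak in all 15 libraries. Lep, which encodes leptin itself, and Gfral and Ret, which encode the GDF15 receptor, had no peak in any library.

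Of the 10 genes of leptin receptor signalling, 5 were lower on the corn diets and 3 higher on HF, where 39.4% and 15.1% of all genes were, and the median differences were -22.4 and 17.3. Socs3, the feedback inhibitor of the receptor, differed by -41.1 on the corn diets (exact adjusted p = 0.0348), Stat5a by -32.5 (exact adjusted p = 0.0965) and Sh2b1 by -23.4 (exact adjusted p = 0.0578). Socs3 was also among the 3 higher on HF, by 32.2 (exact adjusted p = 0.233), and the HF mice are among those compared with the corn mice. Ptpn1, a phosphatase that acts on JAK2, differed by 24.1 on HF (exact adjusted p = 0.175). Lepr itself had a peak in 4 libraries, while 5 of these 10 genes had a peak in all 15.

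Of the 22 transcription factors known to act on the members, 9 were lower on the corn diets and 8 higher on HF, with none in the opposite directions, where 39.4% of all genes were lower on the corn diets and 15.1% higher on HF. The median differences were -15.5 and 15.6. Egr1, an immediate-early gene, differed by -60.4 on the corn diets (exact adjusted p = 0.0348), Pparg by -49.0 (0.0469 in the same adjusted exact test) and the glucocorticoid receptor gene Nr3c1 by -47.4 (exact adjusted p = 0.0373). Egr1 and Nr3c1 were also among the 8 higher on HF, by 50.3 and 38.2 (exact adjusted p = 0.280 and 0.233). Ppard, a receptor for fatty acids, differed by -38.3 on the corn diets (exact adjusted p = 0.0965). Ppara, which drives Fgf21 and Angptl4 on fasting, had a peak in all 15 libraries and differed by -2.54 on the corn diets, with an exact p of 0.158.

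Similarity of pattern over the 15 libraries is given as a description, since all points share the libraries and their list lengths. For Angptl4 the most similar genes were Bdh1 (Spearman's rho = 0.88) and Pctp (0.77), for Angptl8 Gpx4 (0.79) and Prx (0.79), and for Ahsg Slc25a34 (0.78) and Hspd1 (0.75). For Fetub they were Wdr91 (0.90) and Zfp775 (0.89), and for Lect2 Slc48a1 (0.99) and Rtca (0.98), both with a peak in the same 7 libraries as Lect2. Between members the highest value was that of Lepr and Fetub (rho = 0.84), which agreed in the presence of a peak in 14 of 15 libraries.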

How the data were processed

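H3K4me3 PAT-ChIP-seq peak lists of 15 mouse livers were used, 1 per mouse. The authors mapped 50 bp reads to mm10 with BWA, kept alignments without duplicates on chromosomes 1 to 19 and X that had a MAPQ of at least 1, using SAMtools, and called peaks (islands) with SICER2 at an FDR of 0.05. The value in each deposited file is the SICER2 score of a peak, which adds up, over the enriched windows, the negative logs of their Poisson probabilities. No input control, read counts or gene expression was used here.

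Diets came from the sample labels. Scores served as ranks within a list. The recovered read numbers were within 0.00042 of a whole number in 14 libraries and 0.265 away in YD replicate 1, at an effective genome fraction of 0.74. The depth behind a single peak is unknown, so errors are those between mice. Means were compared by exact permutation tests (two-sided, every arrangement of mice), at a threshold of 0.05, with Benjamini-Hochberg adjustment over 13044 genes. The corn tests can reach a p of 0.0004, the HF tests 0.0044. The tools were scipy 1.17.1, pandas 2.3.3, numpy 2.4.6 and matplotlib 3.10.9 under Python 3.11.15, and the tests were checked on simulated data.

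The members and lists were chosen with earlier results of these data known. All 8 members were named. Of each list, at most 4 genes with p under 0.05 were named, by the largest difference, 1 gene that this rule names is not reported here, and Klb, Lep, Gfral, Ret, Ppara, Leprot, Fut1 and the marker genes were named after their values were seen. Of the hepatocyte markers, 9 of 10 symbols were found. For genes in at least 5 libraries, the 2 most similar genes over 100 kb away were named. Same-numbered mice are different animals, and the deviations of their score percentiles from the diet means had a mean correlation of -0.00435 over 30 pairs (-0.180 to 0.0839), so the numbers were not taken as pairs. The alternatives were a TSS within 3 kb or inside the peak, the 7825 highest-scoring peaks of each list, peaks of at least 600 bp, TSSs of protein-coding transcripts, the rank among genes, the width, the replicate block, the 10 libraries named ChIP rather than PATChIP and the omission of each mouse.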

Additional observations from a re-analysis of the deposited data

How the results depend on the processing

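Of 229 alternative values of the counts and means, 196 stayed within the spread between mice or within 1.5 times the main count. Omitting 1 of the 3 mice of a diet cannot move its mean number of members past that spread, so those values had to stay. Many other values were counts of 0 that stayed at 0. No peak at the members was narrower than 600 bp, so that limit could not change the mean numbers. The 196 are therefore not a measure of how stable the results are. Except for width on the corn diets and on HF against the other diets, the alternatives were computed for the members only. Their counts have no share of all genes beside them, so a changed count cannot be assigned to the members rather than to the whole lists. With the TSS inside the peak, the mean number of members with a peak was 2.67 on SD and 2.33 on RD, no member was lower on RD or YD than on SD or on the corn diets than on the others, and 1 was higher on HF than on SD and 1 than on the other diets (Lect2, exact p = 0.00440). With the 7825 highest-scoring peaks of every list, the mean number was 2 on SD, 2.67 on CR and 4 on HF. It was 2.33 on both YD and RD, so YD was no longer the lowest. Here no member was lower on RD, YD or the corn diets. In this setting 1 member was higher on YD than on SD, and 1 was higher on HF in each comparison. With the rank among genes, 1 member was higher on YD than on SD and 1 on HF than on SD, Angptl8 in both cases. By that rank 0 members were past the threshold for HF against the other diets. By width, with an absent peak as 0, 2 members were past it for the corn diets, also 2 without YD replicate 3. By width 1 was higher on HF than on SD. Gdf15 was among the 2 on the corn diets, with the same exact p as by percentile, since both depend only on which mice had a peak. In the ChIP-named libraries 0 were past the threshold for HF, a test that could not pass with 1 HF mouse. With the replicate block, 1 was past it for HF (the exact p of Angptl8 was 0.0640) and 1 was higher on CR than on SD, and the block changed no other count.

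Leaving out each mouse gave 0 to 2 members higher on YD than on SD, 0 to 2 higher on CR and 0 to 1 lower, 0 to 1 lower on RD than on YD, and 0 to 3 past the threshold for HF, with 3 without CR replicate 3 and 0 when HF replicate 1 or 2 was left out. The 2 on YD were found without YD replicate 3 and the 2 on CR without CR replicate 2. For Gdf15 on the corn diets the exact p stayed between 0.00466 and 0.0210. With no peak in any corn mouse, these values too depend only on which mice had a peak.

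Differences that changed sign, none of them past the threshold, were those of Angptl8 on the corn diets (4.22 with the 7825 peaks, 7.76 by gene rank), Lepr on the corn diets (11.9 with the 7825 peaks), Lect2 on HF (-1.63 with the 7825 peaks), Angptl4 on HF (-2.28 in the ChIP-named libraries) and Lepr on HF (283 bp by width, 21.3 in the ChIP-named libraries). With each mouse left out in turn, the difference ranged from -16.5 to 2.86 for Angptl4 and from -18.7 to 1.02 for Lepr on the corn diets, and from -17.2 to 4.92 for Lepr on HF. The cause was not tested. The lists differ in length and in their lowest score, which limits what a percentile or an absent peak can show, and 3 mice per diet limit every comparison.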
